A study of Mus musculus with 12 samples.

Results

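The collagen genes of the mouse retina were described in 3 models of hereditary retinal degeneration. The members were the genes whose symbol names a collagen chain (Col, a type number, the letter a and a chain number), which held for 44 of the 32867 genes in the deposited table. They were ordered as 11 fibrillar collagens, 8 collagens of basement membranes and 25 other collagens. The study sequenced ribosomal RNA-depleted total RNA of whole retinas in 12 samples, 3 in each of 4 groups, taken near the time when most photoreceptors die in each model. Pde6b rd1 retinas (postnatal day 13) carried the rd1 allele of Pde6b, the rod phosphodiesterase subunit, on a C3H background. Pde6b rd10 retinas (postnatal day 23) carried the rd10 allele of the same gene on C57Bl6/J. Prph rd2 retinas (postnatal day 29) carried the rd2 allele of Prph2, a structural protein of photoreceptor discs, on a background that the study's methods give as C3H and the sample labels as C57BL6/J. The C3H group carried the wild-type alleles of both genes and had 1 sample at each of days 13, 23 and 29. Each comparison asked how a model near its peak of photoreceptor death differed from C3H retina, and a direct one how the rd10 and rd1 retinas differed from each other.

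Collagens are triple helices of 3 chains that cells secrete as procollagens, trim and crosslink outside the cell. Fibrillar collagens form the banded fibres of sclera, skin and bone, and in the eye types II, V and XI form the fine fibrils of the vitreous. Type IV collagens form the sheet of every basement membrane, which in the retina covers the vessels, the inner surface facing the vitreous (the inner limiting membrane) and the layer beneath the pigment epithelium. Other types coat fibrils, span the cell membrane or anchor membranes to the tissue around them.

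The libraries held 17049495 to 24755890 reads on genes, of which 0.0911 to 0.118% fell on collagens. Retinal markers were present throughout, among them Sag, the arrestin of photoreceptors, at 404 to 417 FPKM in C3H and 239 to 240 in Pde6b rd1, 223 to 226 in Pde6b rd10 and, for Prph rd2, 349 to 365. FPKM, reads scaled to gene length and to library size, is the level used below, since it takes account of gene length. Sag was lower in Pde6b rd1 (-0.85 ± 0.02) and Pde6b rd10 (-0.93 ± 0.03), and so was recoverin (Rcvrn, -0.77 ± 0.03 and -0.92 ± 0.04). The fall was not shared by all 10 retinal markers listed. By the call defined below, 4 were lower in Pde6b rd1 (background over all genes 5.99%) and 2 in Pde6b rd10 (8.06%). In Prph rd2, 1 was lower (1.87%), and 0 were higher in any of the models. Of the mutated genes, Pde6b had a log2 fold change of -2.16 in Pde6b rd1 and -0.57 in Pde6b rd10 (the latter under 1.5-fold), and Prph2 of -1.06 in Prph rd2. Spread between the samples of a group (biological coefficient of variation) was 3.10% in C3H and 3.30% in Pde6b rd1, against 5.002% in Pde6b rd10 and 7.19% for Prph rd2. The groups also differed in sex-linked transcripts. The C3H libraries had 8 to 10 reads of Xist and 5401 to 7194 reads of Y-linked genes, and the Pde6b rd1 libraries 64914 to 83716 and 0. Each Pde6b rd10 and Prph rd2 library held both kinds, 13428 to 18861 and 37187 to 47452 reads of Xist with 3689 to 5537 and 2607 to 3180 of Y-linked genes. For Pde6b rd10, the allele, strain and sex-linked difference cannot be told apart, and in Pde6b rd10 against Pde6b rd1 the day differs as well. For Pde6b rd1 and Prph rd2 against C3H, the allele and the sex-linked difference cannot be told apart either. By its sample labels, Prph rd2 differs from C3H in strain too. The C3H samples span 3 ages, so each model also differs in day from part of them. Among the 30 collagens with a mean of at least 100 counts in C3H, the highest of the 3 C3H samples, which span 3 ages, was at most 1.45 times the lowest (median 1.16). The sources used here do not say how many animals a sample holds, so p-values measure the spread between samples, which may in part be technical.

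All 44 collagens had at least 1 read in each library. The most abundant was Col9a1, a chain of the type IX collagen that coats type II fibrils in vitreous and cartilage, at 30.3, 29.1 and 30.9 FPKM in the 3 C3H samples. No comparison called it, with 34.1, 33.3 and 33.2 FPKM in Pde6b rd1 and 29.7, 30.0 and 28.5 in Pde6b rd10 samples, with 26.8, 28.9 and 27.6 in Prph rd2. All Pde6b rd1 samples lay above and all Prph rd2 samples below the C3H range, by less than 1.5-fold. Next came Col4a1 and Col4a2, the common chains of basement membrane, then the transmembrane collagen Col23a1 and Col2a1, the fibrillar collagen of vitreous and cartilage. At the other end, Col6a5, a type VI chain, had 1 to 13 reads per library and was tested in no comparison. By class, the fibrillar collagens summed to 22.6 ± 0.787 FPKM in C3H (SD, n = 3), those of basement membranes to 60.6 ± 2.78 and the others to 73.0 ± 2.00.

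**Figure D1:**
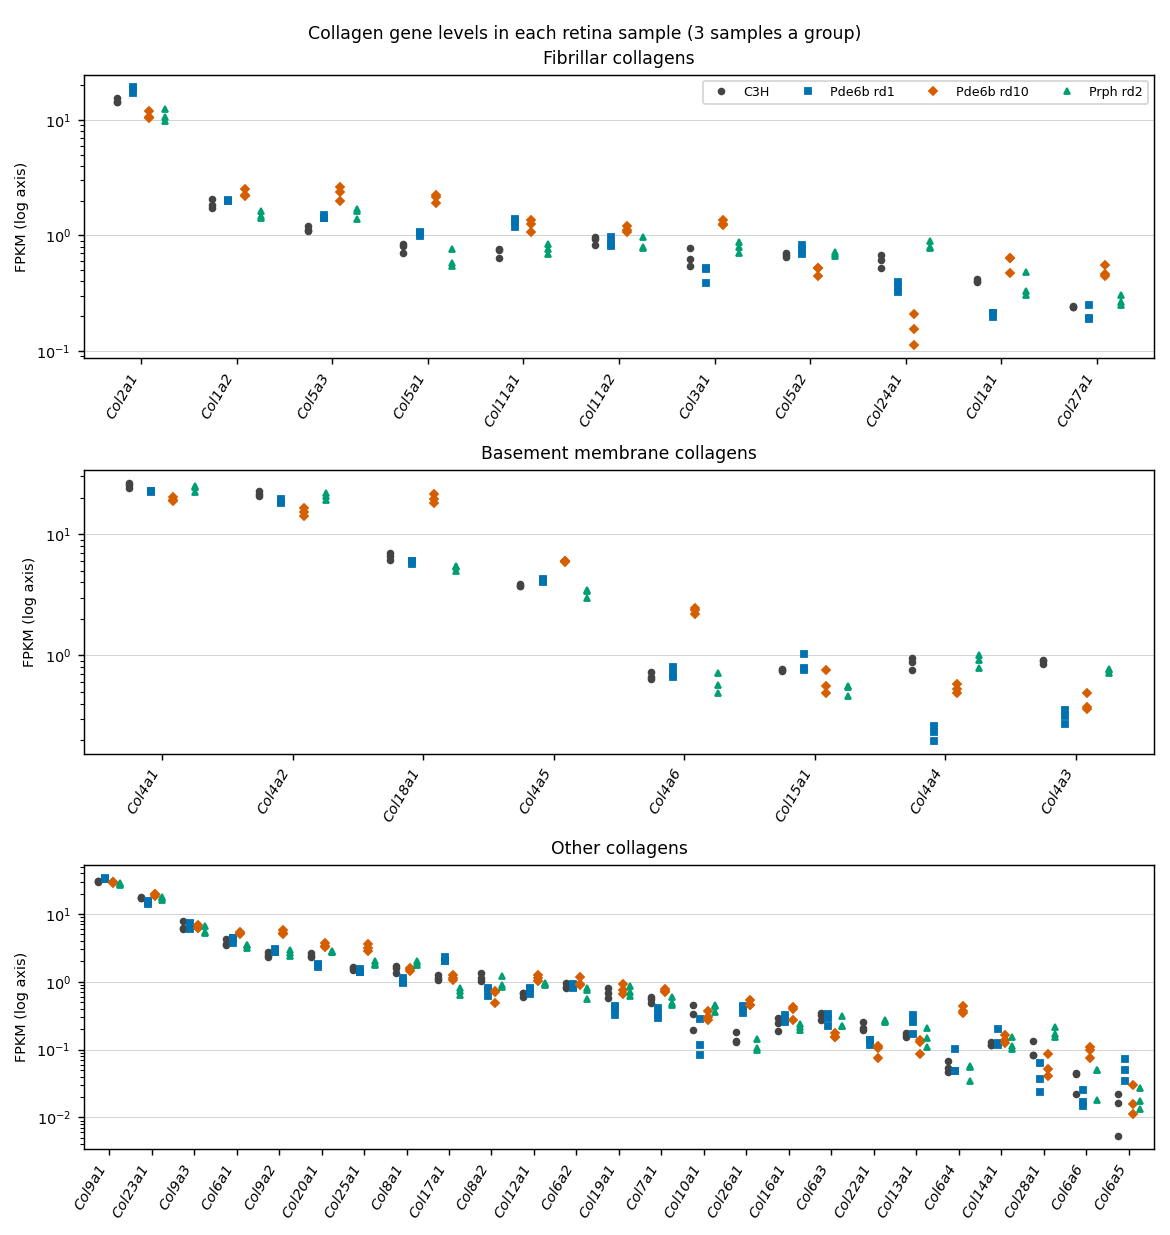
FPKM of each of the 44 collagen genes (log axis) in each of the 12 retina samples, in 3 panels by class and ordered by mean level, with 3 points a group. Col9a1 is the highest gene in all groups, and the Pde6b rd10 samples lie above all others for Col18a1, Col4a6 and Col6a4.

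The collagen total and its makeup were set side by side as levels, without a test. Summed over the 44 genes, the level was 151.6, 154.8 and 162.0 FPKM in C3H, 149.1, 154.5 and 157.8 in Pde6b rd1 and 162.5, 167.8 and 176.7 in Pde6b rd10 samples, with 136.7, 144.9 and 151.8 in Prph rd2 (lowest, median and highest sample). The 5 most abundant genes, Col9a1, Col4a1, Col4a2, Col23a1 and Col2a1, made up 69.5 to 70.2% of it in C3H, 70.0 to 70.6% in Pde6b rd1 and 69.1 to 69.4% in Prph rd2, but 55.4 to 56.3% in Pde6b rd10. There, Col18a1, a collagen of basement membranes whose cleaved end is endostatin, stood at 19.7, 21.5 and 18.2 FPKM, near Col4a1 at 19.3, 20.4 and 18.7. In C3H it was at 6.62, 6.15 and 6.99 FPKM, in Pde6b rd1 at 5.69 to 6.05 and in Prph rd2 at 4.96 to 5.52. The lowest Pde6b rd10 sample, 18.2 FPKM, was above the highest of the other groups, 6.99.

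**Figure D2:**
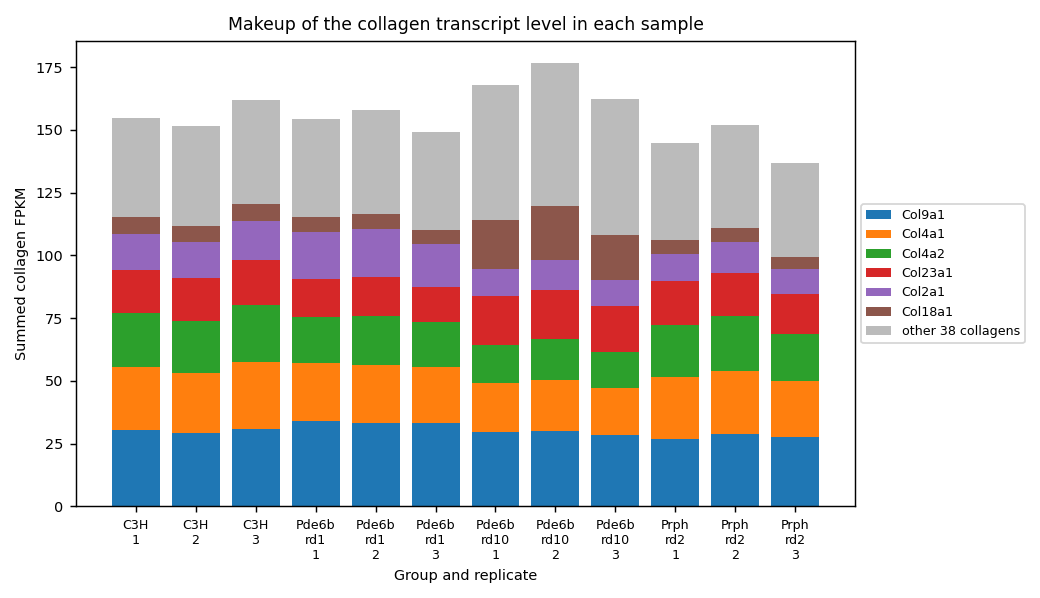
Summed FPKM of the collagen genes in each sample (bars start at 0), split into the 6 most abundant genes and the rest, in the order C3H, Pde6b rd1, Pde6b rd10, Prph rd2. The brown Col18a1 segment is 18.2 to 21.5 FPKM in Pde6b rd10 and at most 6.99 elsewhere, and the grey segment of the other 38 collagens is also taller there.

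Counts were compared with edgeR's quasi-likelihood test across all genes, and calls needed an unadjusted p under 0.05 together with a change of at least 1.5-fold. In Pde6b rd1, 3 of the 40 collagens tested were higher than in C3H (background over all genes, 9%) and 10 were lower (background 5.99%). In Pde6b rd10, 14 of 42 were higher (background 15.9%) and 6 were lower (background 8.06%). In Prph rd2, 1 of 42 was higher (background 2.7%) and 1 was lower (background 1.87%). The median log2 fold change of the tested members was -0.10, 0.22 and -0.12 in Pde6b rd1, Pde6b rd10 and Prph rd2, against -0.01, -0.00 and -0.00 over all genes. In all, 27 collagens were called in at least 1 of these comparisons and 17 in none. The share of all genes called in at least 1 comparison was not computed, so this count is a tally only and not a result about collagens. All 3 comparisons used the same C3H samples, so that a gene called in more than 1 of them was not called independently. The direct contrast of Pde6b rd10 with Pde6b rd1 called 18 of 43 collagens higher in Pde6b rd10 (background 17.6%) and 5 lower (background 11.1%). The same backgrounds hold for the counts by class and list below, where a count of 1 or 2 is often near them. Col6a4 and Col6a6 in Pde6b rd10 and Col28a1 in Prph rd2 passed the low-count filter only through the group where they were high. Col10a1 in Pde6b rd1 against C3H passed it only through C3H, where it was high. In the direct contrast, Col6a6 passed it only through Pde6b rd10. That these members were called is in part given by the filter.

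**Figure D3:**
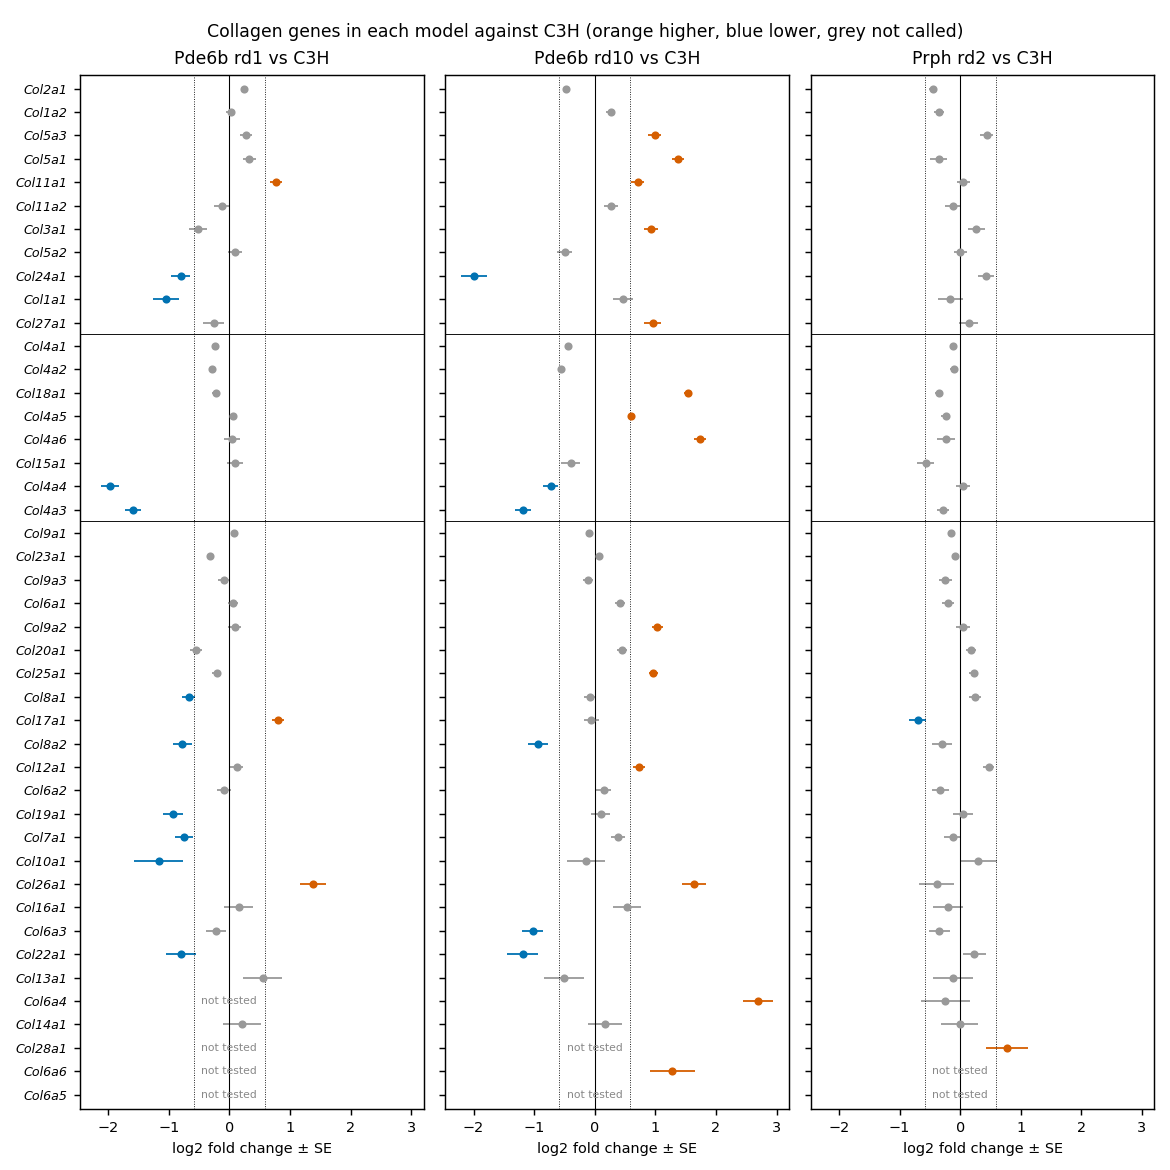
Log2 fold change with its standard error for each collagen (rows, grouped as fibrillar, basement membrane and other) in the 3 models against C3H, with dotted lines at 1.5-fold. Called genes are orange (higher) or blue (lower): mostly lower in Pde6b rd1, mostly higher in Pde6b rd10, and 1 of each in Prph rd2.

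The 6 type IV chains are encoded by 3 pairs of genes, each read outward in opposite directions from neighbouring starts. Col4a1 and Col4a2 form the network of all vessels and lie on chromosome 8, where their starts overlap by 22 bases. Col4a3 and Col4a4 lie on chromosome 1 with 71 bases between their starts, and with Col4a5 they form the tougher network known from the kidney filter and from Alport syndrome. Col4a5 and Col4a6 lie on chromosome X with 1308 bases between their starts. The stretch between Col4a4 and Col4a3, the pair that was lower in both Pde6b models, and the bases before the starts of Col4a6 and Col4a5, the pair that was higher in Pde6b rd10, are shown because the genes of a pair start beside each other. They are from RefSeq on GRCm38, each on the strand of the gene named, 5′ to 3′, and capitals mark a match to the GC box (GGGCGG) or the CCAAT box (CCAAT) on either strand.
Between Col4a4 and Col4a3, chr1:82586850-82586920: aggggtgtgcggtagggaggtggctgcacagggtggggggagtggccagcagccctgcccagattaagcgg
Before Col4a6, chrX:141474077-141474326: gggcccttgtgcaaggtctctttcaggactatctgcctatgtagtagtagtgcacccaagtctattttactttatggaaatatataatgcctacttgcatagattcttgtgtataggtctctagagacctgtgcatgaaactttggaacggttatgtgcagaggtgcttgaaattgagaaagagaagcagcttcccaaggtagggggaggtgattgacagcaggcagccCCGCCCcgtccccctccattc
Before Col4a5, chrX:141475169-141475384: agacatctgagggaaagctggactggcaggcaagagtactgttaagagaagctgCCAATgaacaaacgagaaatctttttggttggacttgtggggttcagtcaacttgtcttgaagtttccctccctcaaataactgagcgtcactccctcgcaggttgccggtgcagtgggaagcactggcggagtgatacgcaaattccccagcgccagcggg
The 71 bases between Col4a4 and Col4a3 held neither box, no TATA box (TATAAA) and no STAT motif (TTCNNNGAA). Stretches of that length before the start held them in 20.7%, 13.3%, 4.41% and 1.68% of all promoters. The 250 bases before Col4a6 held 1 GC box, on the other strand, against 32.7% of promoters with at least 1. The 216 bases before Col4a5 held 1 CCAAT box, against 30.8%. Over windows of 300 bases, 60.5% of the 38 windows found for 35 collagens held a GC box, against 35.7% of all promoters; these are matches of letters, not shown to be bound.

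Col4a3 and Col4a4 had the lowest log2 fold changes of the collagens in Pde6b rd1. Col4a3 had 0.925, 0.906 and 0.851 FPKM in C3H, 0.317, 0.353 and 0.271 in Pde6b rd1 and 0.365, 0.375 and 0.492 in Pde6b rd10 samples, with 0.763, 0.721 and 0.770 in Prph rd2. Both Pde6b models lay below every C3H and Prph rd2 sample, and Prph rd2 lay below C3H with a log2 fold change of -0.28 ± 0.10, under 1.5-fold. The log2 fold change was -1.59 ± 0.13 in Pde6b rd1 (standard error, adjusted p = 2.75e-11) and -1.18 ± 0.13 in Pde6b rd10 (adjusted p = 1.04e-07), edgeR's test with Benjamini-Hochberg adjustment over all genes, as for all adjusted p below. Col4a4 had 0.949, 0.764 and 0.880 FPKM in C3H, 0.198, 0.232 and 0.264 in Pde6b rd1 and 0.586, 0.488 and 0.532 in Pde6b rd10 samples, with 1.00, 0.921 and 0.793 in Prph rd2. It was 3.93-fold lower in Pde6b rd1 (-1.97 ± 0.15, adjusted p = 1.74e-12) and 1.66-fold lower in Pde6b rd10 (-0.73 ± 0.12, adjusted p = 2.50e-05), with no overlap with C3H in either. Against the 1 C3H sample of the same day, the Pde6b rd10 value was -0.56 and no longer reached 1.5-fold. In the direct contrast Col4a4 was higher in the Pde6b rd10 samples (1.27 ± 0.16, adjusted p = 2.96e-07), while Col4a3 differed by 0.43 ± 0.15, below 1.5-fold. In bulk retina, fewer cells of a type and less RNA per cell cannot be told apart. Of the exon bases of Col4a3, 5.65% are shared with C430014B12Rik on the opposite strand, and the strand setting of the counting is not given in the sources used here.

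Col4a5 and Col4a6 went the other way in Pde6b rd10. Col4a6 had 0.663, 0.637 and 0.734 FPKM in C3H and 2.21, 2.36 and 2.45 in Pde6b rd10, a 3.32-fold rise with no overlap (1.73 ± 0.10, adjusted p = 3.78e-12). Its partner Col4a5 rose less, from 3.73, 3.73 and 3.89 to 5.99, 5.87 and 6.03 FPKM (0.60 ± 0.06, adjusted p = 3.03e-08). In Pde6b rd1, whose libraries had the most Xist reads, these X-linked genes had 4.04 to 4.31 and 0.671 to 0.810 FPKM, with log2 fold changes of 0.07 ± 0.06 and 0.04 ± 0.13. In Prph rd2 they had 3.00 to 3.44 and 0.488 to 0.713 FPKM (-0.24 ± 0.08 and -0.23 ± 0.15), and none of these 4 differences was called. By FPKM, all Col4a5 values lay above C3H in Pde6b rd1 and below it in Prph rd2, while those of Col4a6 overlapped in both. In the direct contrast Col4a6 was higher in Pde6b rd10 (1.72 ± 0.12, adjusted p = 1.13e-11), and Col4a5 differed by 0.56 ± 0.06, under 1.5-fold. The part of the sex-linked difference between groups in the values of these X-linked genes was not tested.

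The abundant pair Col4a1 and Col4a2 was called in no comparison. Col4a1 had 25.2, 24.1 and 26.6 FPKM in C3H, 22.9, 22.9 and 22.3 in Pde6b rd1 and 19.3, 20.4 and 18.7 in Pde6b rd10 samples, with 24.6, 25.03 and 22.2 in Prph rd2. Col4a2 had 21.6, 20.7 and 22.6 FPKM in C3H, 18.53, 19.7 and 18.1 in Pde6b rd1 and 15.4, 16.4 and 14.3 in Pde6b rd10 samples, with 20.8, 22.0 and 19.0 in Prph rd2. In Pde6b rd10 both were below all C3H samples, with differences of -0.44 ± 0.05 and -0.55 ± 0.05 (adjusted p = 8.17e-08 and 1.38e-08) that stayed under 1.5-fold. In Pde6b rd1 the differences were -0.23 ± 0.04 and -0.28 ± 0.04 and in Prph rd2 -0.11 ± 0.06 and -0.10 ± 0.06. The pair made up 29.6 to 30.4% of collagen FPKM in C3H and 20.3 to 20.8% in Pde6b rd10. The 8 endothelial markers summed in Pde6b rd10 to 59.8 to 65.1 FPKM against 79.9 to 83.3 in C3H, with 0 called higher and 2 lower (Kdr -0.60, Tie1 -0.86). Most of that level was Kdr, at 30.5 to 31.6 against 44.7 to 45.4 FPKM. The list did not move as a whole. Mean FPKM was higher in Pde6b rd10 for Pecam1 (3.83 against 3.44), Tek (2.33 against 2.25) and Erg (0.932 against 0.911), and lower for the others. The part of these markers in the collagen values was not tested.

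**Figure D4:**
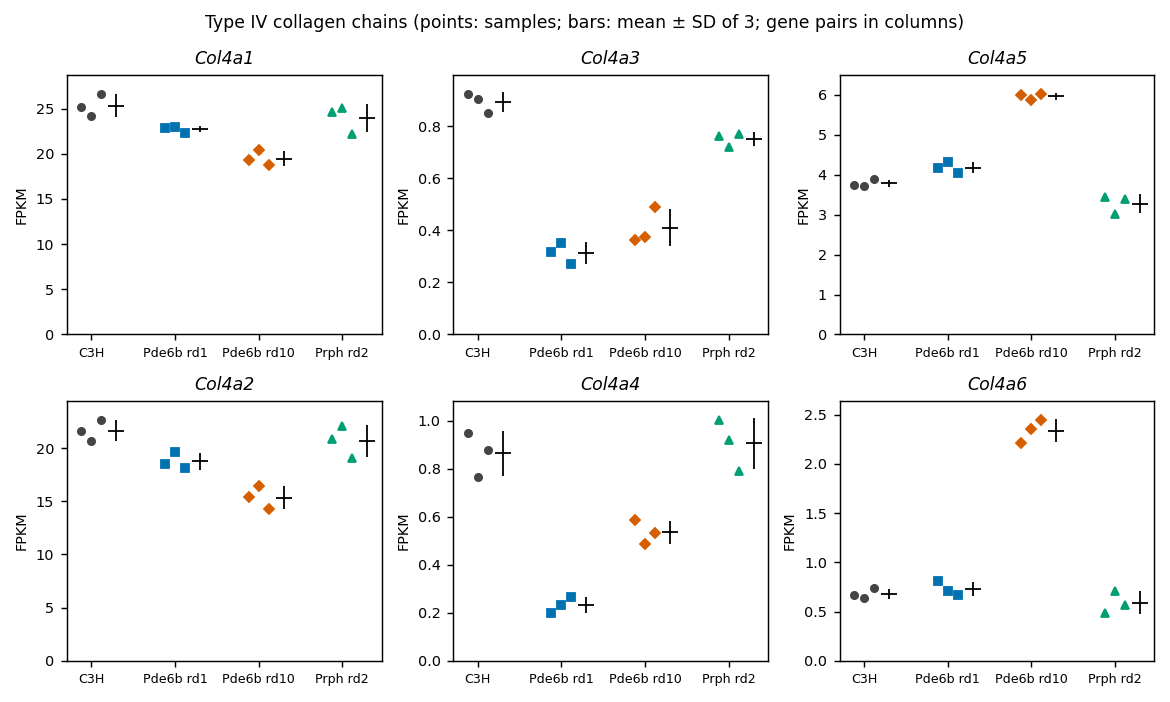
FPKM of the 6 type IV chains in each sample (axes start at 0), with head-to-head gene pairs in columns and the mean ± SD of 3 samples beside the points. Col4a3 and Col4a4 are low in both Pde6b models, Col4a5 and Col4a6 are highest in Pde6b rd10, and Col4a1 and Col4a2 are lowest in Pde6b rd10.

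The other basement membrane collagens were Col18a1 and Col15a1, which are related in structure. Col18a1 was 2.90-fold higher in Pde6b rd10 than in C3H (1.53 ± 0.06, adjusted p = 1.46e-14), the smallest adjusted p of all collagens in that comparison. The direct contrast with Pde6b rd1 gave 1.78 ± 0.06 (adjusted p = 1.02e-16). In Pde6b rd1 and Prph rd2 all samples lay below C3H, with log2 fold changes of -0.22 ± 0.05 and -0.35 ± 0.07 that were not called. Col15a1 had 0.747 to 0.773 FPKM in C3H, 0.757 to 1.03 in Pde6b rd1 and 0.488 to 0.766 in Pde6b rd10 samples, with 0.459 to 0.559 in Prph rd2, and no comparison called it. Its Prph rd2 samples lay below all C3H samples (-0.57 ± 0.14, adjusted p = 0.018), at just under 1.5-fold.

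Among the 11 fibrillar collagens, 5 were higher and 1 lower in Pde6b rd10, 1 higher and 2 lower in Pde6b rd1 (single calls of 11 lie near the backgrounds of 8.06% lower and 9% higher), and 0 were called in Prph rd2, where 3 had an adjusted p under 0.05 at less than 1.5-fold. The 5 that rose in Pde6b rd10 are minor or regulatory fibril chains and the type III chain of vessel walls. Col5a1, which with its relatives sets fibril diameter, had 0.837, 0.710 and 0.803 FPKM in C3H and 2.16, 2.23 and 1.90 in Pde6b rd10, a 2.59-fold rise (1.37 ± 0.10, adjusted p = 2.59e-10). Col5a3 stood at 1.11, 1.081 and 1.21 and 2.38, 2.64 and 1.98 FPKM (0.99 ± 0.11, adjusted p = 1.34e-07). Neither gene's groups overlapped. The other type V chain, Col5a2, differed the other way by -0.49 ± 0.12 and was not called, with 0.655 to 0.700 FPKM in C3H and 0.446 to 0.526 in Pde6b rd10.

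Col3a1 rose from 0.780, 0.538 and 0.622 to 1.22, 1.25 and 1.35 FPKM (0.93 ± 0.12, adjusted p = 1.03e-06) and Col27a1, a long fibrillar collagen of developing cartilage, from 0.244, 0.240 and 0.240 to 0.465, 0.550 and 0.449 (0.96 ± 0.14, adjusted p = 6.58e-06). Col11a1, which nucleates thin fibrils and is mutated in Stickler syndrome, was the fibrillar chain called higher in both Pde6b models. It had 0.751, 0.764 and 0.638 FPKM in C3H, 1.19, 1.38 and 1.32 in Pde6b rd1 and 1.07, 1.36 and 1.25 in Pde6b rd10, with log2 fold changes of 0.77 ± 0.09 (adjusted p = 6.51e-08) and 0.71 ± 0.10 (adjusted p = 6.79e-06). Prph rd2 samples, at 0.696 to 0.836 FPKM, overlapped with the C3H range of 0.638 to 0.764. The direct contrast gave -0.04 ± 0.10, not called. Its partner Col11a2 was not called in any comparison (0.819 to 0.968 FPKM in C3H, and -0.12, 0.26 and -0.12 in the 3 models).

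Col24a1, a minor fibrillar collagen, was the one fibrillar chain lower in both Pde6b models. It had 0.674, 0.524 and 0.609 FPKM in C3H, 0.361, 0.323 and 0.395 in Pde6b rd1 and 0.111, 0.154 and 0.210 in Pde6b rd10. The groups were fully apart, and the fall was 1.75-fold in Pde6b rd1 (-0.81 ± 0.16, adjusted p = 1.66e-04) and 3.99-fold in Pde6b rd10 (-1.995 ± 0.21, adjusted p = 7.78e-08). Prph rd2, at 0.893, 0.801 and 0.774 FPKM, lay above all C3H samples by 0.42 ± 0.14, which was not called. The direct contrast gave -1.16 ± 0.21 (adjusted p = 6.44e-05).

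Of the type I chains, the main fibre of sclera, skin and bone, 1 was called in Pde6b rd1. Col1a1 had 0.422, 0.406 and 0.392 FPKM in C3H and 0.195, 0.214 and 0.214 in Pde6b rd1, a 2.06-fold fall without overlap (-1.04 ± 0.21, adjusted p = 1.91e-04). Col1a2, which joins it in the same molecule, had 2.08, 1.72 and 1.82 and 1.97, 2.04 and 1.97 FPKM (0.02 ± 0.07, not called). In Pde6b rd10 they had 0.472 to 0.640 and 2.201 to 2.54 FPKM (0.47 ± 0.17 and 0.26 ± 0.08), both not called. The direct contrast placed Col1a1 and Col3a1 higher in Pde6b rd10, by 1.53 ± 0.21 and 1.47 ± 0.14 (adjusted p = 1.14e-06 and 3.30e-09). Col2a1, by far the most abundant fibrillar gene, had 14.2, 14.2 and 15.4 FPKM in C3H, 18.52, 19.1 and 17.1 in Pde6b rd1 and 10.6, 12.003 and 10.3 in Pde6b rd10 samples, with 10.7, 12.4 and 9.71 in Prph rd2. All Pde6b rd1 samples were above and all Pde6b rd10 and Prph rd2 samples below C3H, with log2 fold changes of 0.25 ± 0.04, -0.47 ± 0.05 and -0.45 ± 0.07, each under 1.5-fold with an adjusted p of 1.10e-05, 2.88e-07 and 5.64e-04. The direct contrast called it lower in Pde6b rd10 (-0.69 ± 0.07, adjusted p = 2.84e-07).

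Type VI collagen forms beaded filaments around cells, from Col6a1, Col6a2 and one further chain that can be Col6a3, Col6a4, Col6a5 or Col6a6. In Pde6b rd10, 1 of these further chains was lower and 2 were higher. Col6a3 had 0.278, 0.320 and 0.346 FPKM in C3H and 0.155, 0.152 and 0.176 in Pde6b rd10, a 2.03-fold fall (-1.02 ± 0.18, adjusted p = 5.03e-05). Col6a4 had 0.0473, 0.0683 and 0.0533 and 0.374, 0.345 and 0.446 FPKM, the largest rise of any collagen, 6.49-fold (2.70 ± 0.25, adjusted p = 1.08e-08), from 8, 14 and 9 reads to 79, 55 and 76. Col6a6 had 0.0440, 0.0454 and 0.0220 and 0.1102, 0.0991 and 0.0764 FPKM (1.28 ± 0.37, adjusted p = 0.0063), on 4 to 10 reads in C3H and 14 to 25 in Pde6b rd10, and lost its call against the same-day C3H sample alone (1.01). Groups overlapped for none of the 3. Col6a4 had 7 to 17 reads in the Pde6b rd1 and Prph rd2 libraries and Col6a6 3 to 11. The common chains were not called, with Col6a1 at 3.53 to 4.26 FPKM in C3H and 5.08 to 5.46 in Pde6b rd10 (0.41 ± 0.08) and Col6a2 at 0.799 to 0.946 and 0.889 to 1.18 (0.15 ± 0.12).

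Of the 9 fibril-associated collagens, which sit on the surface of fibrils, Pde6b rd1 had 2 lower, and Pde6b rd10 had 2 higher and 1 lower. Of the 3 chains of type IX collagen 1 was called. Col9a2 rose from 2.31, 2.80 and 2.50 to 5.27, 5.87 and 5.14 FPKM in Pde6b rd10 (1.03 ± 0.10, adjusted p = 1.40e-08), with no overlap, and was also higher than in Pde6b rd1 (0.97 ± 0.10). Col9a1 and Col9a3 differed from C3H by -0.09 ± 0.04 and -0.11 ± 0.09 there, Col9a3 at 6.04, 6.15 and 7.81 FPKM in C3H and 6.12, 6.82 and 6.31 in Pde6b rd10. In Pde6b rd1 and Prph rd2, Col9a3 had 6.06 to 7.32 and 5.23 to 6.60 FPKM and was not called; 6.07% of its exon bases are shared with Tcfl5 on the opposite strand.

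Col12a1, a long collagen of tendon and cornea, rose from 0.681, 0.680 and 0.603 to 1.02, 1.25 and 1.13 FPKM in Pde6b rd10 (0.73 ± 0.09, adjusted p = 1.55e-06). In Prph rd2 its samples, at 0.957, 0.938 and 0.899 FPKM, were also above all C3H samples (0.47 ± 0.09, adjusted p = 0.0029), short of 1.5-fold. Col22a1, a collagen of tissue junctions, was lower in both Pde6b models, with 0.197, 0.208 and 0.252 FPKM in C3H, 0.139, 0.140 and 0.118 in Pde6b rd1 and 0.105, 0.0755 and 0.114 in Pde6b rd10 (-0.79 ± 0.25 and -1.19 ± 0.25, adjusted p = 0.0096 and 3.97e-04). Col19a1, which some brain interneurons make, was lower than C3H in Pde6b rd1, at 0.319, 0.434 and 0.415 FPKM against 0.695, 0.809 and 0.579 (-0.93 ± 0.17, adjusted p = 4.44e-05). It had 0.652 to 0.929 FPKM in Pde6b rd10 (0.10 ± 0.15) and was higher there than in Pde6b rd1 (1.05 ± 0.18, adjusted p = 3.14e-05). Col20a1, not called against C3H, had 2.31 to 2.62 FPKM in C3H, 1.63 to 1.84 in Pde6b rd1 and 3.28 to 3.71 in Pde6b rd10, and the direct contrast called it higher in Pde6b rd10 (1.02 ± 0.09, adjusted p = 7.37e-10). Col14a1, at 0.115 to 0.129 FPKM in C3H and 0.127 to 0.164 in Pde6b rd10, and Col16a1, at 0.187 to 0.292 and 0.275 to 0.430, were called in no comparison.

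The 4 network and anchoring collagens were all lower in Pde6b rd1. They are Col8a1 and Col8a2, the chains of the hexagonal lattice beneath the corneal endothelium, Col10a1 of growth plate cartilage and Col7a1 of the anchoring fibrils of skin. Col8a1 had 1.36, 1.74 and 1.58 FPKM in C3H and 0.947, 1.00 and 1.15 in Pde6b rd1 (-0.67 ± 0.11, adjusted p = 6.74e-06). Col8a2 had 1.12, 1.36 and 1.02 and 0.622, 0.810 and 0.752 FPKM (-0.78 ± 0.16, adjusted p = 1.47e-04). Col7a1 had 0.485, 0.590 and 0.564 and 0.294, 0.411 and 0.338 FPKM (-0.74 ± 0.15, adjusted p = 1.47e-04). Groups did not overlap for these 3. Col10a1 had 0.338, 0.452 and 0.194 and 0.117, 0.281 and 0.0829 FPKM, on 5 to 34 reads and with overlap, the second Pde6b rd1 sample lying within the C3H range (-1.17 ± 0.41, adjusted p = 0.021). It passed the filter on low counts only through C3H, where it was high. Against the same-day C3H sample alone, Col8a1 (-0.47) and Col7a1 (-0.57) fell short of 1.5-fold and Col10a1 (-1.19) and Col22a1 (-0.65) missed the p threshold, while Col8a2 was still called. Without the second C3H sample, Col10a1 (-0.84) was not called either. In Pde6b rd10, Col8a2 was called lower, at 0.720, 0.702 and 0.479 FPKM (-0.94 ± 0.17, adjusted p = 8.20e-05), and the others were not (-0.08 for Col8a1, 0.38 for Col7a1 and -0.15 for Col10a1). The direct contrast placed Col8a1, Col7a1 and Col10a1 higher in the Pde6b rd10 samples by 0.61 ± 0.11, 1.15 ± 0.14 and 1.05 ± 0.40. In Prph rd2 none of the 4 was called, and their log2 fold changes were 0.24 for Col8a1, -0.30 for Col8a2, -0.12 for Col7a1 and 0.30 for Col10a1.

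The transmembrane collagens span the cell membrane. Col17a1, a protein of the hemidesmosomes that fix epithelia to their basement membrane, was the one collagen called in opposite directions in different models. It had 1.12, 1.26 and 1.07 FPKM in C3H, 2.05, 2.00 and 2.29 in Pde6b rd1 and 1.14, 1.26 and 1.07 in Pde6b rd10 samples, with 0.814, 0.725 and 0.630 in Prph rd2. Pde6b rd1 was above and Prph rd2 below every C3H sample, and Pde6b rd10 overlapped with C3H. The values were 0.80 ± 0.10 (adjusted p = 2.17e-07), -0.70 ± 0.14 (adjusted p = 0.0031) and -0.05 ± 0.12 (adjusted p = 0.72) in that order of Pde6b rd1, then Prph rd2, then Pde6b rd10, and the direct contrast of the Pde6b models gave -0.83 ± 0.11. Pde6b rd1 and Prph rd2 were not tested against each other.

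Col25a1, a neuronal membrane collagen needed for motor nerve growth into muscle, rose from 1.60, 1.66 and 1.48 to 3.19, 2.84 and 3.62 FPKM in Pde6b rd10 (0.97 ± 0.08, adjusted p = 1.43e-09), with no overlap. It had 1.40 to 1.54 FPKM in Pde6b rd1 and 1.79 to 2.02 in Prph rd2, where it was not called. Col23a1, the most abundant of the class, had 17.2, 17.2 and 18.0 FPKM in C3H, 15.2, 15.4 and 13.9 in Pde6b rd1 and 19.5, 19.4 and 18.3 in Pde6b rd10 samples, with 17.6, 17.02 and 15.9 in Prph rd2. Its log2 fold changes were -0.31 ± 0.04, 0.07 ± 0.05 and -0.08 ± 0.05, none of them called. Col13a1, a collagen of the nerve-muscle synapse, had 0.153 to 0.175 FPKM in C3H, 0.169 to 0.328 in Pde6b rd1 and 0.0868 to 0.140 in Pde6b rd10, and was called in the direct contrast alone, lower in Pde6b rd10 (-1.03 ± 0.35, adjusted p = 0.015).

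The remaining genes were Col26a1 and Col28a1. Col26a1, first known from testis and ovary, was higher in both Pde6b models, with 0.185, 0.132 and 0.130 FPKM in C3H, 0.437, 0.352 and 0.425 in Pde6b rd1 and 0.459, 0.457 and 0.532 in Pde6b rd10, and no overlap. The rises were 2.60-fold (1.38 ± 0.22, adjusted p = 4.75e-06) and 3.13-fold (1.64 ± 0.20, adjusted p = 5.21e-07), and the direct contrast of 0.29 ± 0.18 was not called. It lies on chromosome 5, as Pde6b does, 28.3 Mb from it, and the part of this position in its values was not tested. Col11a2 lies on chromosome 17, 12.8 Mb from Prph2, and was not called in Prph rd2 (-0.12 ± 0.13). In Prph rd2 Col26a1 had 0.0971 to 0.145 FPKM (-0.39 ± 0.29, not called). Col28a1, known from glia of peripheral nerves, was the one collagen called higher in Prph rd2, with 0.0822, 0.136 and 0.0823 FPKM in C3H (8 to 16 reads) and 0.172, 0.213 and 0.151 in Prph rd2 (18 to 25 reads). The groups did not overlap, but its adjusted p was 0.18 (0.78 ± 0.35), and DESeq2 did not call it (0.79, unadjusted p = 0.13).

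The genes that make, bind or organise collagen were taken as 4 lists. Of 31 tested collagen assembly enzymes, 8 were higher and 2 lower in Pde6b rd10, 1 higher and 4 lower in Pde6b rd1, and of 32 in Prph rd2 0 were higher and 1 lower, by the same call as above. Over all genes, 15.9% were higher and 8.06% lower in Pde6b rd10, and 9% and 5.99% in Pde6b rd1. Tll2, 1 of the 2 lower in Pde6b rd10 (-2.35 ± 0.43), had 9, 3 and 3 reads there and 33, 28 and 14 in C3H. It passed the filter on low counts only through C3H, where it was high, so that its call is in part given by the filter. Pcolce, which speeds the trimming of procollagen, rose most, from 0.619, 0.533 and 0.555 FPKM in C3H to 12.2, 12.3 and 11.2 in Pde6b rd10, 20.1-fold (4.33 ± 0.10, adjusted p = 1.07e-18). The trimming protease itself, Bmp1, rose from a range of 2.54 to 2.73 FPKM in C3H to one of 5.86 to 6.86 (1.23 ± 0.07, adjusted p = 1.94e-12). Loxl4, a crosslinking oxidase, was higher in Pde6b rd10 at 4.50 to 5.08 FPKM (1.78 ± 0.10, adjusted p = 3.32e-12) and lower in Prph rd2 at 0.372 to 0.456 (-1.75 ± 0.17, adjusted p = 2.42e-06), against 1.20 to 1.51 in C3H. In Pde6b rd1 its relative Lox was higher, at 1.16, 1.41 and 1.48 FPKM against 0.660, 0.752 and 0.630 (0.90 ± 0.15, adjusted p = 6.73e-06), and Pcolce2 (-1.44 ± 0.24) and the procollagen N-proteinase Adamts2 (-0.90 ± 0.23) were lower.

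Of the 14 tested non-collagen components of basement membranes, 0 were called in Pde6b rd1 and Prph rd2, where 10 and 5 had an unadjusted p under 0.05 at less than 1.5-fold, and 4 were higher and 4 lower in Pde6b rd10. Lama5, a laminin chain of mature basement membranes, rose from 1.92, 2.11 and 2.00 to 6.25, 6.75 and 6.13 FPKM (1.61 ± 0.06, adjusted p = 4.90e-15), and agrin (Agrn) rose by 0.64 ± 0.04. Lama1, the laminin chain of early basement membranes and of the inner limiting membrane, fell from 3.60, 3.88 and 3.43 to 1.92, 1.94 and 1.93 FPKM (-0.97 ± 0.07, adjusted p = 1.22e-10). Of 8 collagen receptors, Pde6b rd10 had 3 higher and 0 lower, Pde6b rd1 had 0 and 1, and Prph rd2 had 1 and 0. Ddr2, a receptor kinase for fibrillar collagen, was higher in Pde6b rd10 (1.67 to 1.95 FPKM against 0.561 to 0.686, 1.51 ± 0.10) and lower in Pde6b rd1 (0.351 to 0.443, -0.68 ± 0.14). The inhibitory receptor Lair1 (1.18 ± 0.11) and the integrin chain Itga10 (1.81 ± 0.28) were the other 2 in Pde6b rd10, and Itga10 was also called in Prph rd2 (0.98 ± 0.36, adjusted p = 0.1). With 11, 13 and 8 reads in C3H, Itga10 passed the filter on low counts only through the model in both comparisons.

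Of 6 tested fibril proteoglycans, which bind collagen fibrils, Pde6b rd10 had 3 higher and 1 lower, Pde6b rd1 had 0 and 1, and Prph rd2 had 0 and 0. Optc, the opticin of the vitreous, rose from 1.33, 1.21 and 1.71 to 17.6, 19.7 and 17.1 FPKM, 12.4-fold (3.63 ± 0.10, adjusted p = 4.41e-17), and was lower in Pde6b rd1 at 0.747, 0.752 and 0.907 (-0.88 ± 0.19, adjusted p = 3.66e-04). Ogn, at 0.118 to 0.275 FPKM in C3H, rose to a range of 2.33 to 2.99 (3.92 ± 0.23). With 14, 8 and 6 reads in C3H, Ogn passed the filter on low counts only through Pde6b rd10, where it was high. Fmod, at 0.929 to 1.084 FPKM in C3H, rose to a range of 6.62 to 7.56 (2.76 ± 0.10). The proteoglycan list summed to 17.4 to 18.3 FPKM in C3H and 46.1 to 50.6 in Pde6b rd10.

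**Figure D5:**
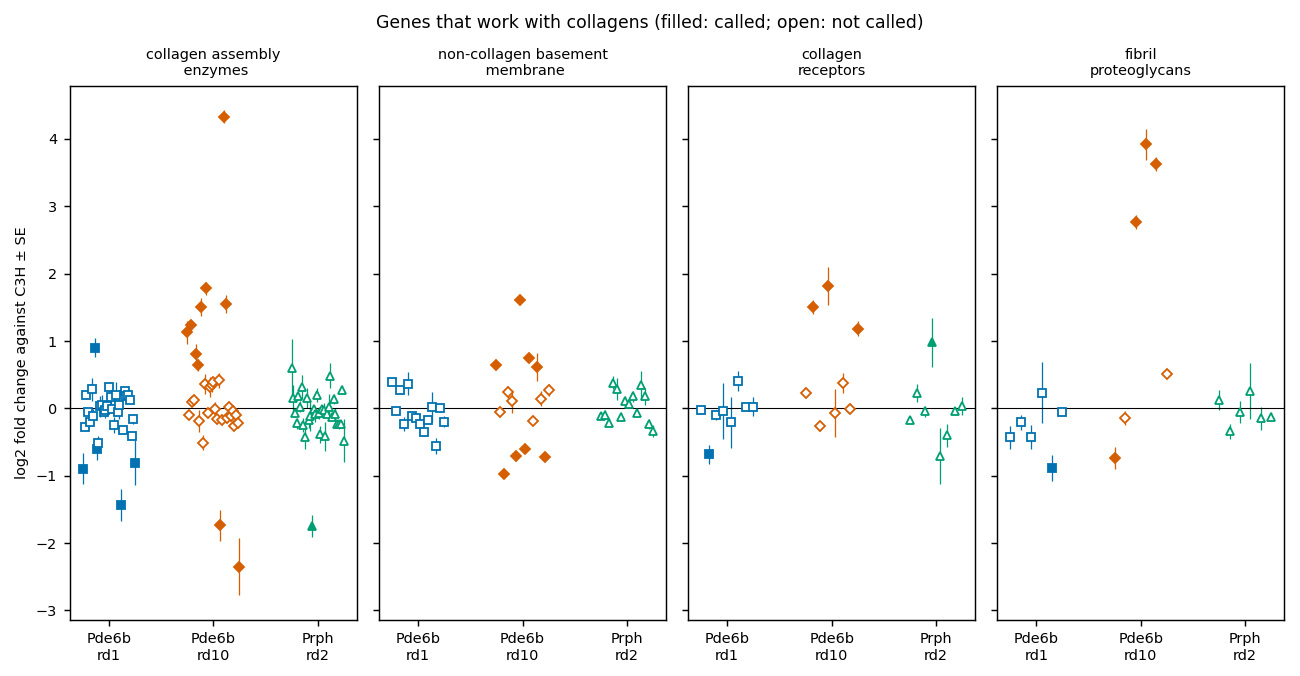
Log2 fold change against C3H with its standard error for the tested genes of 4 lists that work with collagens, by model, with filled marks for called genes. Pcolce (4.33), Ogn (3.92), Optc (3.63) and Fmod (2.76) stand highest in Pde6b rd10, while most genes in Pde6b rd1 and Prph rd2 lie near 0. Ogn passed the filter on low counts only through Pde6b rd10.

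Markers of cells that surround or enter the retina also differed between groups, and their part in the collagen values was not tested. In Pde6b rd10, 4 of 5 tested fibroblast markers were higher and the list of 8 summed to 60.1 to 63.3 FPKM against 37.0 to 37.3 in C3H. Most of that level was Cygb (49.8 to 53.1 against 31.6 to 32.2 FPKM) and Mfap4 rose most (3.18 ± 0.17), while the defining marker Dpt had 0 reads in all 3 libraries, Pi16 5 to 15 and Mfap5 6 to 13. Microglia and macrophage markers were higher for 7 of 8 and summed to 32.7 to 34.6 FPKM against 11.4 to 12.3, led by Ptprc (3.498 ± 0.13). Of these, Aif1, with 12, 3 and 9 reads in C3H, passed the filter on low counts only through Pde6b rd10. Markers of astrocytes and reactive glia were higher for 4 of 5 and summed to 233 to 249 FPKM against 42.4 to 45.9, with Gfap at 3.19 ± 0.05. The lens list summed to 4.04 to 4.22 FPKM against 2.79 to 3.38, with Cryaa higher, Bfsp1 and Bfsp2 lower, and Cryba1 and Crygb passing the filter on low counts only through Pde6b rd10, where they are high. Bfsp1, with 16, 13 and 7 reads in Pde6b rd10, passed it only through C3H, where it was high. Of 8 mural cell markers 1 was higher (Tagln, 1.07 ± 0.24), and of 8 tested pigment cell markers 1 was higher (Tyrp1, 1.11 ± 0.14). Of 5 cornea and ciliary epithelium markers 1 could be tested, Aqp5, which was higher (0.79 ± 0.26).

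In Pde6b rd1, some members of other lists were lower. Mural cell markers were lower for 3 of 8, Rgs5 (-0.62 ± 0.04), Acta2 (-0.91 ± 0.18) and Myh11 (-1.001 ± 0.22), and summed to 36.4 to 37.7 FPKM against 51.2 to 54.5 in C3H. Pigment cell markers were lower for 4 of 8 tested, among them Rgr, Ttr and Lrat, and summed to 18.47 to 20.97 FPKM against 27.7 to 30.4. The lens crystallin Cryaa had 0 to 0.0229 FPKM against 0.276 to 0.423, and the lens list summed to 1.46 to 1.51 FPKM against 2.79 to 3.38. With 1, 1 and 0 reads in Pde6b rd1 and 20, 26 and 14 in C3H, Cryaa passed the filter on low counts only through C3H, where it was high. Of endothelial markers 1 of 8 was lower (Emcn, -0.67 ± 0.21), of 5 tested fibroblast markers 1 was higher (Mfap4) and 1 lower (Scara5), of 7 tested microglial markers 1 was higher (Cd68) and of 5 glial markers 1 was lower (Serpina3n). In Prph rd2, 1 of 8 microglial markers was higher (Tmem119, 0.84 ± 0.22) and 0 genes of the endothelial, mural, fibroblast, pigment, lens, corneal and glial lists were called.

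Circular RNAs of collagen genes were few. The deposited table lists 12510 circular RNAs, of which 2 came from collagen genes, Col11a1 (chr3:114055594-114066574) and Col6a4 (chr9:106062772-106068392, both on mm10), each with 2 back-splice junction reads in 1 library, under the floor of 3 reads below which no level is read.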

How the data were processed

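Whole-retina RNA of 12 samples in 4 groups of 3 was depleted of ribosomal RNA and sequenced from directional libraries by the authors. The authors aligned reads to GRCm38 (the submitters' notes name HISAT2 and TopHat2 2.1.1) and counted them per gene with HTSeq 0.11.2. The deposited gene table holds raw counts per gene and FPKM values that the authors scaled to gene length and library total. The deposited circular RNA table holds counts of back-splice junction reads and TPM values, which the authors computed from those reads without a length term and which were not used. It was read only for collagen genes. The strand setting of the counting is not given in the sources used here. Samples were grouped by their labels.

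Counts were tested in edgeR 4.0.16 (R 4.3.3) with its low-count filter, TMM scaling and robust quasi-likelihood fits, each model with the 3 C3H samples and Pde6b rd10 against Pde6b rd1 within all 12. p-values were adjusted over all genes tested by Benjamini-Hochberg. Counts, not FPKM, were tested, and FPKM carry no TMM scaling, so that small differences between both can arise. The script was tested on simulated data. The members, gene lists and named genes were chosen with earlier results of these data known. Named were members called in at least 1 comparison with C3H, the 3 most abundant of each class, the type IV chains and up to 3 called genes of each other list. The other 10 members are outside that rule and were named after their values were seen, to account for every member. Also run were DESeq2 1.42.0 on the counts and, for FPKM, limma 3.58.1 after adding 1 or 0.1 and taking log2, as were other scaling, filters at 1 CPM or none, GC correction, a replicate block, same-day C3H samples and leaving out each sample. Sequences are from RefSeq on GRCm38. Intervals were not computed for single libraries, and p-values cover the spread between samples only. Values of 1 further gene of the marker lists are left out.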

Additional observations from a re-analysis of the deposited data

Results flagged for a closer look

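The Pde6b rd10 and Pde6b rd1 samples were compared directly, and of 43 collagens tested, 18 were higher in Pde6b rd10 (background over all genes 17.6%) and 5 lower (background 11.1%, near the members' share) at an unadjusted p under 0.05 and at least 1.5-fold (edgeR). The groups differ in allele, strain, day and sex-linked reads, which cannot be told apart. Col6a6 passed the filter on low counts only through Pde6b rd10, so that its call is in part given by the filter. Higher in Pde6b rd10, on the log2 scale, were the type VI chains Col6a4 (2.57) and Col6a6 (2.35), the basement membrane collagens Col18a1 (1.78), Col4a6 (1.72) and Col4a4 (1.27), and the fibrillar chains Col1a1 (1.53), Col3a1 (1.47), Col27a1 (1.24), Col5a1 (1.07) and Col5a3 (0.74). So were the membrane collagen Col25a1 (1.20), the anchoring and network collagens Col7a1 (1.15), Col10a1 (1.05) and Col8a1 (0.61), and the fibril-associated Col19a1 (1.05), Col20a1 (1.02), Col9a2 (0.97) and Col12a1 (0.64). Lower in Pde6b rd10 were Col24a1 (-1.16), Col13a1 (-1.03), Col17a1 (-0.83), Col6a3 (-0.78) and Col2a1 (-0.69). Without 1 of the libraries, 4 of these calls were lost: Col10a1 without Pde6b rd1 replicate 1 (0.85) or 3 (0.76), Col12a1 without Pde6b rd1 replicate 1 (0.53) or Pde6b rd10 replicate 2 (0.56), Col13a1 without Pde6b rd1 replicate 1 (-0.77), and Col8a1 without Pde6b rd1 replicate 1 (0.54) or Pde6b rd10 replicate 1 (0.58).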

How the results depend on the processing

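The count of collagens called, 13 for Pde6b rd1, 20 for Pde6b rd10 and 2 for Prph rd2 against C3H and 23 for the direct contrast, moved by more than 1.5 times with limma on log2(FPKM + 1), with or without the filter, to 1, 6, 0 and 8. Adding 1 shrinks fold changes, most of all at low FPKM, but calls above 1 FPKM were lost too, such as Col4a5 in Pde6b rd10 (0.54 against 0.60). With limma on log2(FPKM + 0.1) the counts were 9, 19, 1 and 19. In Prph rd2 the count was 1 with DESeq2, with a 1 CPM filter, with the adjusted p as threshold and with limma on log2(FPKM + 0.1), and 3 with the same-day C3H sample alone. Leaving out 1 sample at a time gave 13 to 15, 20 to 21, 1 to 3 and 19 to 24. No called direction reversed. Of the calls, 9 of 13, 18 of 20, 1 of 2 and 19 of 23 held in every fit of counts. Gains are given below for members named by the rule above or called in any comparison. Those of other members are not listed. With library size only or GC correction, for instance, 15 collagens were higher in Pde6b rd10, through a member not listed. Calls gained in Pde6b rd1 were Col3a1 (-0.65 without C3H replicate 2, -0.61 without Pde6b rd1 replicate 3, -0.80 with the same-day C3H sample), Col20a1 (-0.59 without C3H replicate 3 or Pde6b rd1 replicate 1, -0.66 same-day) and Col13a1 (0.66 with GC correction, 0.77 without Pde6b rd1 replicate 3). In Pde6b rd10 they were Col4a2 (-0.59 without C3H replicate 2, -0.60 without Pde6b rd10 replicate 2) and Col1a1 (0.60 without Pde6b rd10 replicate 3), and in Prph rd2 Col10a1 (1.07) and Col12a1 (0.59), both same-day. Replicate numbers were not treated as pairs, since in no comparison was every same-number correlation of deviations over 0.1. In Pde6b rd1 against C3H all 3 were positive (0.061 to 0.153) and above the 6 others (at most 0.023), a hint from the data and not the design. They were -0.063 to -0.014 for Pde6b rd10, -0.091 to 0.062 for Prph rd2 and -0.036 to 0.151 for the direct contrast. With the replicate block the counts were 13, 20, 2 and 23, and with GC correction in the same fit 13, 21, 2 and 24. Genes on few reads, such as Col10a1, Col28a1 and Col6a6, are limited by depth.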
